A study of Arabidopsis thaliana with 6 samples.

Results

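Transcript levels of 10 sugar-starvation and dormancy marker genes were examined in Arabidopsis thaliana leaves, as 10 of the 22746 Affymetrix probe sets measured. The probe sets were picked by their identifiers, with their difference between plants that express AmGSTF1 and wild-type plants already in view, so those differences are given below as a description and without a test. AmGSTF1 is a glutathione transferase, named in the series' title as playing a part in the resistance of grass weeds to several herbicides. Of the 6 arrays, 3 came from untransformed Col0, the wild-type ecotype, and 3 from Col0 carrying the AmGSTF1 transgene. All were grown on F2 compost in rooms held at 20 °C under a 16-hour day, from seed that had first been chilled (4 °C, 72 hours). Every sample, wild-type ones included, was a set of 10 leaves floated for 4 hours on 0.1% Tween 20 with 0.1% acetone, and no herbicide is named for any of them. The labels call the triplicates biological. The promoter that drives the transgene, the number of transgenic lines and the number and age of the plants are not given in the sources used here.

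Plants store sugar by day and live on it when light or photosynthesis fails. When carbon runs short, the protein kinase SnRK1 becomes active, and a set of genes known as DIN (dark inducible) genes is transcribed more strongly, while sugar supplied to the leaf represses them. Genes that mark dormant buds, first described in pea, overlap with this set, and their Arabidopsis relatives are commonly read as markers of low sugar. The 10 genes fall into 3 groups by role. ASN1, DIN10, DIN2 and SEN1 are DIN genes, DRM1, AT2G33830 and AT1G56220 belong to the dormancy and auxin associated family, and AT3G62550, AT2G15890 and SIS complete the set.

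The platform annotation used here names 3 of the 10 probe sets, 251221_at for AT3G62550, 256225_at for AT1G56220 and 251039_at for SIS. The other 7 are paired with their genes by the selection alone, 252415_at with ASN1, 246114_at with DIN10, 251428_at with DIN2, 253161_at with SEN1, 245668_at with DRM1, 267461_at with AT2G33830 and 265478_at with AT2G15890. For DRM1 and AT2G33830, 3 of the 4 annotated probe sets with the nearest identifiers belonged to loci within 100 genes of the paired gene, and for the other 5 all 4 did. This places the probe sets near those loci but does not identify the gene, so these 7 names are those of the selection. No sequence of these genes was used here.

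Signals are MAS5 intensities on a linear scale. The median signal of an array was 146 to 164, and 40% of the probe sets lay below a signal of 68.7 to 84.5. No detection calls were used, so signals in that range were not separated from background. Differences are of log2(signal + 16), which understates the change of dim probe sets, and SE is the standard error of a difference from 3 arrays against 3. In whole leaves, fewer cells of a type and less RNA per cell cannot be told apart.

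The mean log2 signal was higher in AmGSTF1 than in Col0 leaves for 9 of the 10 probe sets. These include ASN1, whose difference turned to -0.15 without AmGSTF1 replicate 1. The groups did not overlap for 6 (AT3G62550, AT1G56220, AT2G15890, DRM1, AT2G33830 and SIS). Over the 13647 probe sets kept after a filter on dim signals, 14.5% were higher without overlap. Because this contrast was known when the 10 were picked, nothing is read from their count. Their median log2 difference was 2.38, against 0.05 over the probe sets kept. Of the 10, 9 passed the filter, and DIN2 was too dim. The filter used the mean over both groups, so high AmGSTF1 signals helped a probe set to pass. DRM1, ASN1, SEN1 and SIS lay just above its cut, at percentiles 41.5 to 43.9 of the mean level. Only 6 of the 10 passed without AmGSTF1 replicate 1, and 7 with a pseudocount of 1.

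**Figure D1:**
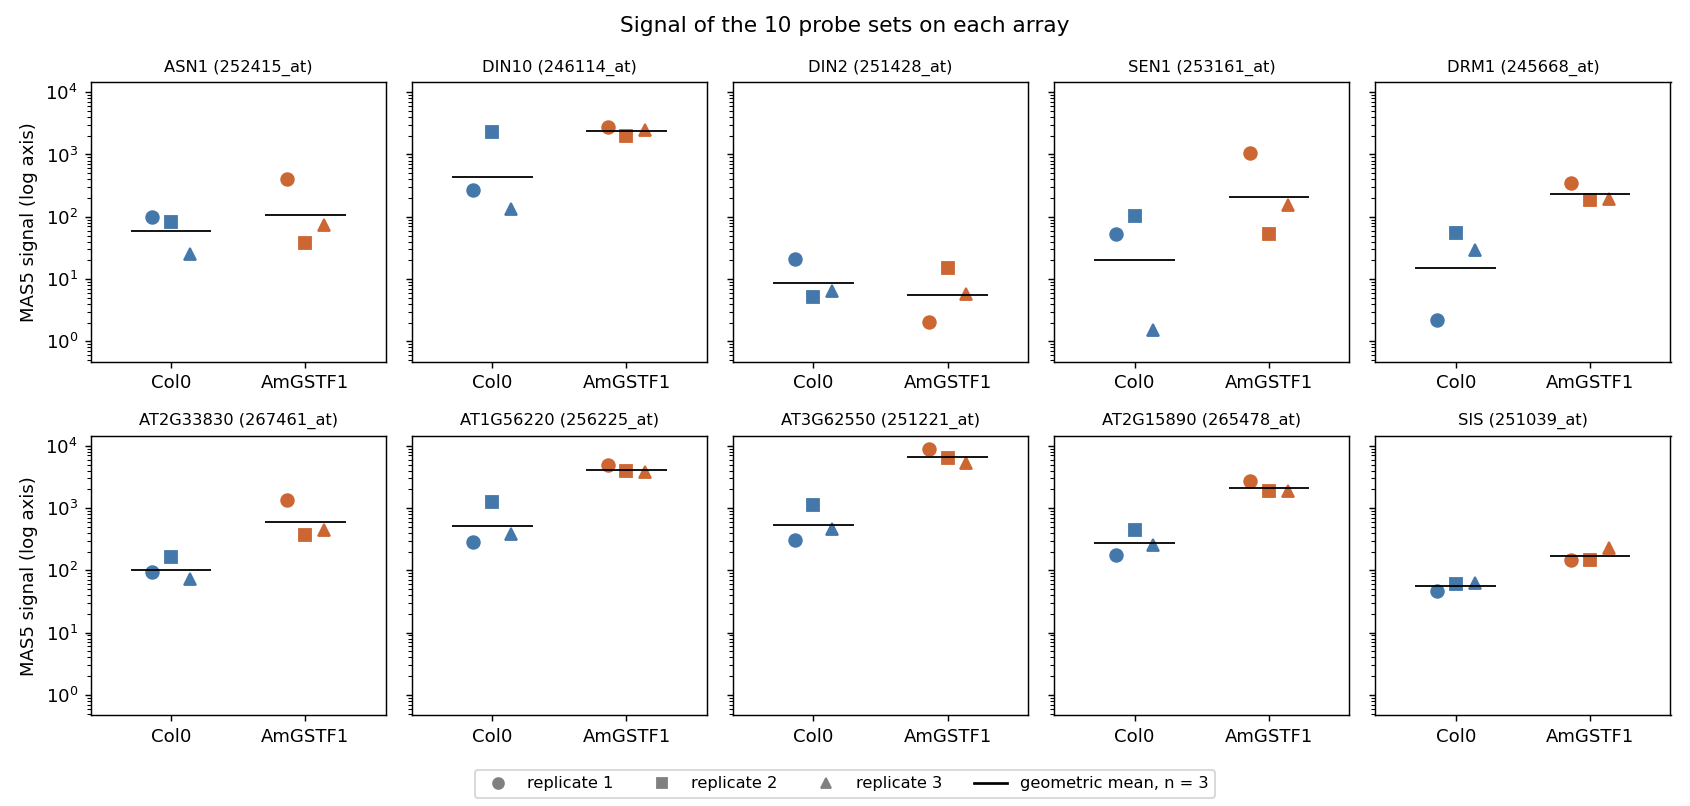
MAS5 signal (log axis) of each of the 10 probe sets on the 3 Col0 arrays (blue) and the 3 AmGSTF1 arrays (orange), with a marker shape per replicate and a line at the geometric mean of each group. The groups are apart for 6 genes, Col0 replicate 2 of DIN10 (2299) lies among the AmGSTF1 signals, and DIN2 is at 20.9 or below on every array.

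Among the DIN genes, DIN10 encodes a protein of the raffinose synthase family. In the order of replicates 1, 2 and 3, kept for all genes below, its signal was 265, 2299 and 131 in Col0 and reached 2747, 1997 and 2459 in AmGSTF1. The AmGSTF1 arrays were all high and lay within 1.38-fold of each other, whereas Col0 spanned 17.5-fold and its replicate 2 lay inside the AmGSTF1 range. The log2 difference was 2.39 (SE 1.21, n = 3 per group). It was 3.56 without Col0 replicate 2, and the groups then no longer overlapped. Without Col0 replicate 3 it was 1.57.

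SEN1, also known as DIN1, encodes a protein with a rhodanese-like domain whose transcript accumulates in the dark and in senescing leaves. Its signal was 52.9, 101 and 1.52 in Col0 and 1072, 53.4 and 152 in AmGSTF1. Replicate 1 of AmGSTF1 stood far above the rest, and its replicate 2 was at the level of Col0 replicate 1. The log2 difference was 2.16 (SE 1.43), with a replicate SD of 1.41 in Col0 and 2.03 in AmGSTF1 on the log2 scale, so its size is known poorly. Leaving out AmGSTF1 replicate 1 lowered it to 1.05. Leaving out AmGSTF1 replicate 2 raised it to 3.04, and leaving out Col0 replicate 2 to 2.75, and in both cases the groups no longer overlapped. With a pseudocount of 1 the difference was 3.11, and 1.50 with 64.

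ASN1, also known as DIN6, encodes the glutamine-dependent asparagine synthetase that stores nitrogen as asparagine when carbon is short. Its signal was 99.8, 82.7 and 25.2 in Col0 and 410, 38.2 and 74.4 in AmGSTF1. As for SEN1, AmGSTF1 replicate 1 was the highest array, but for ASN1 both other AmGSTF1 arrays lay within the Col0 range. The log2 difference of 0.72 was smaller than its SE of 1.01, and it turned to -0.15 without that array. DIN2, which encodes a beta-glucosidase, had Col0 signals of 20.9, 5.07 and 6.33, with 2.06, 15.0 and 5.79 on the AmGSTF1 arrays. All 6 lay below the signal under which 40% of probe sets fell, and no direction can be read from its difference of -0.17 (SE 0.34).

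The dormancy and auxin associated family encodes short proteins of unknown biochemical function, whose transcripts are abundant in dormant buds and fall when buds grow out. DRM1, the Arabidopsis relative of the dormancy gene first found in pea, had Col0 signals of 2.19, 54.6 and 29.6, with 347, 187 and 193 on the AmGSTF1 arrays. The lowest AmGSTF1 signal was 3.42 times the highest Col0 signal. All Col0 signals lay in the dim range, so the size of the log2 difference of 2.68 (SE 0.64) depends on the pseudocount, with 3.73 at a pseudocount of 1 and 1.72 at 64.

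AT2G33830, also known as DRM2, had Col0 signals of 93.3, 163 and 71.7. AmGSTF1 replicate 1 reached 1330.1, with 368 and 439 on the other AmGSTF1 arrays. The groups did not overlap, but AmGSTF1 replicate 1 was 3.62 times the lowest AmGSTF1 array. The log2 difference was 2.37 (SE 0.64), or 5.16-fold on that scale, and 1.80 without AmGSTF1 replicate 1.

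AT1G56220, a further member of this family, had Col0 signals of 289, 1249 and 382, with 4862, 3891 and 3770.2 on the AmGSTF1 arrays. The lowest AmGSTF1 array was 3.02 times the highest Col0 array, and the AmGSTF1 arrays lay within 1.29-fold of each other. Its log2 difference of 2.96 (SE 0.64) had rank 3 from the top among the 13647 probe sets. The 9 members that passed the filter ranked from 1 (AT3G62550) to 641 (ASN1). As the contrast was in view when the 10 were picked, nothing is read from these ranks. Another family member, AT1G54070, was not among the 10. It had Col0 signals between 1.16 and 4.32 and AmGSTF1 signals between 1.63 and 16.0, all in the dim range.

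AT3G62550 encodes a member of the universal stress protein family, small nucleotide-binding proteins of which plants have many. Its signal was 304, 1133 and 458 in Col0 and 9009, 6416 and 5276 in AmGSTF1. The lowest AmGSTF1 signal was 4.66 times the highest Col0 signal, the widest gap of the 10. The log2 difference was 3.59 (SE 0.59), and it stayed between 3.19 and 4.11 when any 1 array was left out.

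AT2G15890, listed as MEE14 after a screen for embryo arrest mutants, had Col0 signals of 175, 448 and 259, with 2761, 1856 and 1896 on the AmGSTF1 arrays. The lowest AmGSTF1 signal was 4.14 times the highest Col0 signal, and the log2 difference was 2.89 (SE 0.42). SIS, named as a salt-induced serine-rich protein, had Col0 signals of 47.0, 59.5 and 63.3, with 148, 146 and 229 on the AmGSTF1 arrays. Its replicates were close together in Col0, within 1.35-fold, and the groups did not overlap. The log2 difference of SIS was 1.37 (SE 0.22), the smallest of the 6 without overlap, and its Col0 signals lay in the dim range. With a pseudocount of 1 it was 1.58, and 0.97 with 64.

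**Figure D2:**
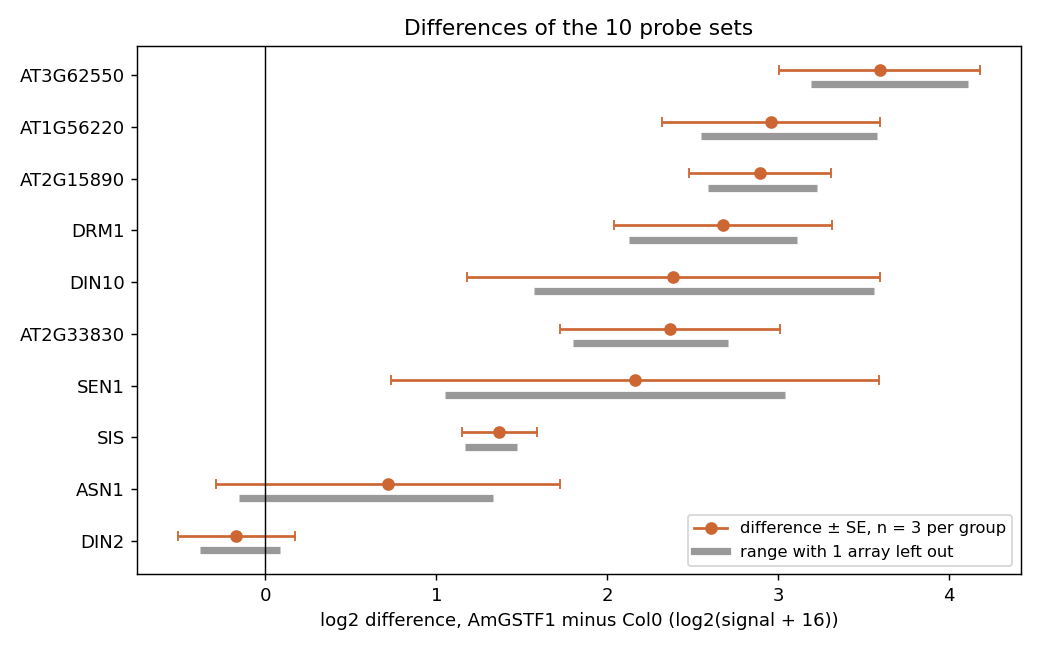
Log2 difference of AmGSTF1 minus Col0 for each of the 10 genes, on the log2(signal + 16) scale, with its SE from 3 arrays per group (orange) and the range of the difference when 1 array is left out (grey). AT3G62550 is highest at 3.59, DIN10 and SEN1 have the widest errors (SE 1.21 and 1.43), and the grey ranges of ASN1 and DIN2 cross 0.

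The spread between replicates was also examined within each group. The values per array were in view when the genes were picked, so this too is a description. The median replicate SD of the 10 genes on the log2 scale was 0.87 in Col0 and 0.39 in AmGSTF1, and 0.20 and 0.195 over the probe sets kept, which were not matched to the 10 for level. In Col0, replicate 2 was the highest array for 7 of the 10 genes, the exceptions being ASN1, DIN2 and SIS. It was the highest Col0 array for 37.2% of the probe sets kept. The median deviation of the 10 genes from their own Col0 mean was 0.77 on Col0 replicate 2, -0.40 on replicate 1 and -0.33 on replicate 3.

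In AmGSTF1, replicate 1 was the highest array for 8 of the 10 genes, DIN2 and SIS being the exceptions, and for 33.6% of the probe sets kept. The deviation of SEN1 there was 2.22 on the log2 scale, that of ASN1 1.74 and that of AT2G33830 1.12. Replicate 2 of AmGSTF1 was the lowest for 7 of the 10. DIN10 varied most in Col0 (SD 2.08) and little in AmGSTF1 (SD 0.23), whereas AT2G33830 varied more in AmGSTF1 (SD 0.98) than in Col0 (SD 0.53). Across the 6 arrays, deviations from the group means correlated with the mean of the other 9 genes at r = 0.87 for AT3G62550 and AT1G56220 and 0.89 for AT2G15890. The same r was 0.82 for DIN10, 0.79 for AT2G33830, 0.72 for DRM1, 0.70 for SEN1, 0.49 for ASN1, -0.15 for SIS and -0.77 for DIN2. These are descriptions over 6 arrays, in which every gene shares the same RNA samples.

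**Figure D3:**
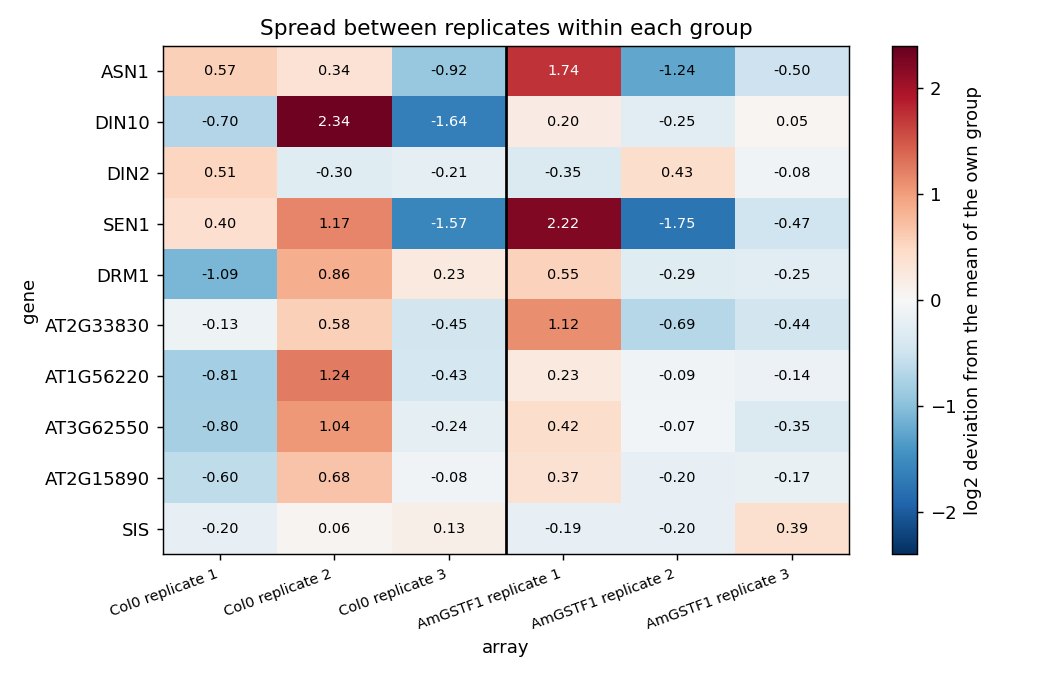
Deviation of each array from the mean of its own group, on the log2(signal + 16) scale, for the 10 genes (rows) and 6 arrays (columns), with the values printed in the cells. Col0 replicate 2 and AmGSTF1 replicate 1 are above their group mean for most genes, with 2.34 for DIN10 and 2.22 for SEN1 as the highest values.

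Whether other genes of the same biology differed between the groups was asked with 95 genes in 5 lists, of which 25 had a named probe set and 22 passed the filter. AmGSTF1 was compared with Col0 with limma over all 13647 probe sets. Of the 22, 1 rose and 0 fell (Benjamini-Hochberg adjusted p under 0.05), where 2.14% of all probe sets rose and 2.90% fell. The 1 that rose was AT3G53990, from the list of relatives, and 0 rose in the sugar and energy signalling lists. At an unadjusted p under 0.05, 6 were higher and 0 lower, and 23.3% of all probe sets had such a p in either direction. The median difference of the 22 was 0.28, against 0.05 over all probe sets tested. Bud dormancy regulators had 0 of 7 genes with a named probe set. A listed gene without a named probe set may still be on the array, because the annotation gave no gene for 8730 probe sets.

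Of 36 listed genes known to be repressed by sugar, 7 had a named probe set and 6 were tested, of which 0 rose and 0 fell with limma, 3 having an unadjusted p under 0.05. Their median log2 difference was 0.96, and 5 of 6 differences were positive. AKINBETA1, a regulatory beta subunit of SnRK1 whose own transcript is raised in the dark, had Col0 signals of 98.9, 229 and 85.1, with 433, 244 and 394 on the AmGSTF1 arrays. The groups of AKINBETA1 did not overlap, and it differed by 1.36 (95% interval 0.60 to 2.11), just missing the limma threshold (adjusted p = 0.0508).

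AT3G15450, also called SEN5, is one of 4 listed genes with a named probe set for aluminium-induced proteins with YGL and LRDR motifs. Its signal was 117, 352 and 65.4 in Col0 and 2210.3, 259 and 967 in AmGSTF1, so that AmGSTF1 replicate 2 lay below Col0 replicate 2. It differed by 2.41 (0.81 to 4.01, limma adjusted p = 0.0802). In the same family AT4G27450 differed by 1.54 (-0.06 to 3.15), AT5G43830 by 0.56 (-0.04 to 1.15) and AILP1 by 0.49 (0.15 to 0.84). ATL8, a RING finger gene, was too dim to be tested. PPDK, which regenerates phosphoenolpyruvate from pyruvate, differed by -0.03 (-0.42 to 0.36). Col0 replicate 2 was the highest Col0 array for all 6 tested genes of this list, and AmGSTF1 replicate 1 was the highest of its group for 4. The pattern was not limited to this list. Among the 9 tested relatives of the marker genes described next, AmGSTF1 replicate 1 was highest for 5 and Col0 replicate 2 for 7. It was highest for 2 of 5 energy signalling genes and 0 of 2 sugar-induced genes. Deviations from the group means were also correlated with the mean profile of the 10 marker genes over the 6 arrays. In the sugar-repressed list r was 0.58 (PPDK) to 0.97 (AT4G27450). The same r was 0.02 to 0.98 (AT3G11930) among the relatives and -0.03 to 0.91 (AT2G28060) in energy signalling. For the sugar-induced genes APL3 and APL4 it was -0.75 and -0.21. Without Col0 replicate 2, AKINBETA1 (1.75, adjusted p = 0.0108), AT3G15450 (3.02, 0.0375), AILP1 (0.65, 0.0230) and AT4G27450 (2.43, 0.0285) passed, whereas AKINBETA1 was at 1.21 (0.173) without Col0 replicate 1. Without AmGSTF1 replicate 2, AKINBETA1 and AT3G15450 passed (adjusted p = 0.0277 and 0.0159). AKINBETA1 also passed with a pseudocount of 64 (adjusted p = 0.0486), and all 4 of these genes passed with array weights (adjusted p 0.00988 to 0.0476).

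The 18 relatives of the marker genes had 11 named probe sets, of which 9 were tested. AT3G53990, like AT3G62550 a universal stress protein gene, rose by 0.74 (95% interval 0.42 to 1.07, limma adjusted p = 0.0250). Its Col0 signals lay between 1510.1 and 1802, and those of all 3 AmGSTF1 arrays were higher, at 2441 to 3054. AT3G53990 no longer passed when Col0 replicate 1 (0.67, adjusted p = 0.114), Col0 replicate 3 (0.79, 0.0824) or AmGSTF1 replicate 1 (0.69, 0.118) was left out, or with a replicate block (0.0654). The next universal stress protein gene was AT3G17020 at 0.46 (0.14 to 0.78, adjusted p = 0.0938), which passed without Col0 replicate 2 (0.59, 0.0293), and the other 6 lay between -0.04 and 0.37. STR18, which like SEN1 has a rhodanese-like domain, differed by 0.48 (0.02 to 0.94, adjusted p = 0.198). BGLU28, a beta-glucosidase like DIN2, was in the dim range with signals of 0.785 to 35.5.

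Of 23 listed genes of energy signalling, 5 were tested and 0 passed with limma, all 5 with unadjusted p above 0.05. AKINBETA1, described above, was counted with the sugar-repressed genes. The transcription factor genes bZIP44 and BZIP53, of the group that acts with SnRK1 in low-energy responses, differed by -0.18 (-0.73 to 0.36) and 0.08 (-0.25 to 0.42). The difference of bZIP44 was -0.46 without Col0 replicate 1 and turned to 0.06 without Col0 replicate 3. RAPTOR1, a subunit of the growth-promoting TOR kinase complex, differed by -0.11 (-0.46 to 0.24). The SnRK1 beta subunit genes AT2G28060 and AT4G16360 differed by 0.05 (-0.27 to 0.37) and -0.03 (-0.39 to 0.33). The intervals of RAPTOR1, BZIP53 and both beta subunit genes stayed within 0.5 on the log2 scale. Among 11 genes that sugar induces, 2 had a named probe set, both encoding large subunits of the starch-synthesis enzyme ADP-glucose pyrophosphorylase. APL3 differed by -0.23 (-0.64 to 0.18) and APL4 by 0.53 (-0.50 to 1.55), and neither passed when any 1 array was left out. APL4 depended on single arrays, at 1.01 without Col0 replicate 1 and 0.94 without AmGSTF1 replicate 3, but 0.26 without AmGSTF1 replicate 1. It was 0.27 and 0.31 without Col0 replicates 2 and 3. APL3 was -0.09 without AmGSTF1 replicate 1 and -0.42 without AmGSTF1 replicate 2.

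**Figure D4:**
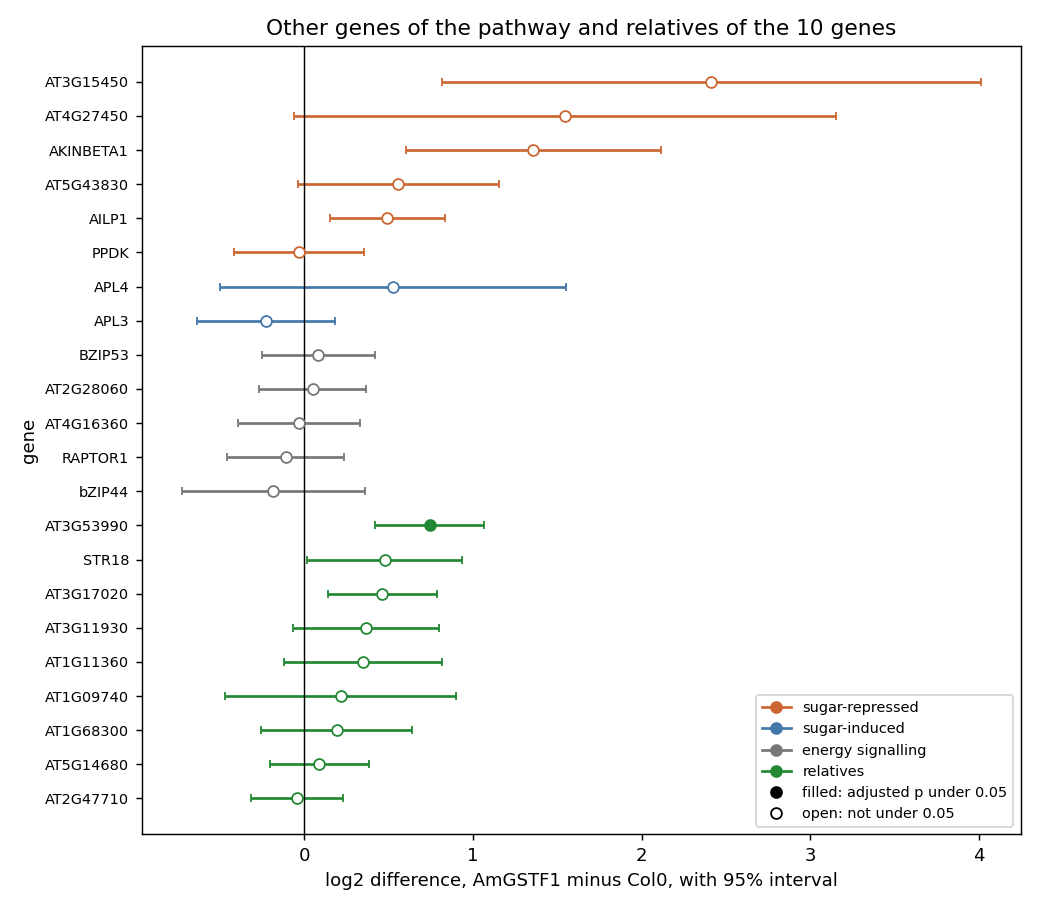
Log2 difference of AmGSTF1 minus Col0 with its 95% limma interval for the 22 tested genes of the lists, coloured by list, with filled points where the adjusted p over all probe sets was under 0.05. AT3G53990 is the single filled point, and AT3G15450 has the largest difference (2.41) with an interval of 0.81 to 4.01.

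The genes whose log2 values over the 6 arrays were most like the mean profile of the 10 were AT1G80960 (r = 0.995), AT3G60680 (0.993), AT5G18630 (0.991), STR18 (0.990) and AT4G00750 (0.990), out of 7352 probe sets with 1 gene. AT5G18630 had Col0 signals of 118, 191 and 73.6 and reached 440.4, 295 and 317 on the AmGSTF1 arrays. By deviations from the group means alone, the most alike were AT2G45810 (r = 0.998), AT1G30640 (0.998), AT5G58090 (0.997), AT1G13195 (0.995) and AT1G73180 (0.994). Of these, AT2G45810 differed between the groups by 0.81, AT1G30640 by -0.05 and AT1G73180 by -0.50. Likeness in the spread between replicates went with either sign of difference. Each list holds the highest r of 7352 candidates over only 6 arrays, where values this high can arise by chance. The r of log2 values also takes in the group difference that was in view when the 10 were picked. Both lists are therefore descriptions.

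Markers of the tissue could be checked with few genes. Of 6 leaf markers, RCA (Rubisco activase) alone had a named probe set. Its Col0 signals lay between 18989 and 22829 and its AmGSTF1 signals between 15369.9 and 21336. Of 9 markers of other cells, 3 had a named probe set and 0 passed with limma. The guard cell regulator FMA alone had an unadjusted limma p under 0.05 (-0.55, adjusted p = 0.201). The groups of FMA did not overlap, with 107 to 127 in Col0 against 60.0 to 96.3. The summed signal of the 3 was 2919 to 5396 on the Col0 arrays against 3504 to 5023 on the others, and nearly all of it was SWEET11 (2738 to 5236 against 3368 to 4847). The root marker PYK10 lay between 38.5 and 85.9 in Col0 and between 63.2 and 173 in AmGSTF1. Of 6 senescence genes, WRKY53 alone had a named probe set, with Col0 signals of 383 to 458 against 401 to 862 (difference 0.46, -0.08 to 1.01). The part of cell types or leaf age in the differences of the 10 genes was not tested.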

How the data were processed

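The deposited values are MAS5 signal intensities per probe set, which the authors computed in Affymetrix Expression Console 1.1, as the submitters' processing notes state. The mean signal after trimming 2% at each end was 496 on every array, so no further normalization was applied. Arrays were grouped by the transgene in their labels, with 3 per group, and that number limits the precision. Values were taken as log2(signal + 16), and the 40% of probe sets with the lowest mean were left out, leaving 13647 of 22746. AmGSTF1 was compared with Col0 with limma 3.58.1 in R 4.3.3 (lmFit, eBayes with an intensity trend), with Benjamini-Hochberg adjustment over all probe sets kept and two-sided p-values. With 3 arrays per group the smallest exact permutation p is 0.1, and no such test was made. The steps were tested on simulated data. Figures were drawn with Python 3.11.15.

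The 10 genes and the gene lists were chosen with earlier results of these data known. Gene names came from the platform's annotation and, for current symbols, RefSeq (TAIR10.1). A single gene was given for 13513 probe sets, more than 1 for 503 and none for 8730. Of each list, every gene called and otherwise the 2 with the smallest p were to be named, along with the 5 genes most alike in pattern. Further list members were named after their values were seen. A gene is its brightest probe set. The symbol written for CHYR1 and TZF1 did not match the table at their locus. Both stayed in the listed count and had no named probe set. Alternatives were other pseudocounts, no filter, quantile or median scaling, no trend, array weights, leaving out each array and a block for the replicate number.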

Additional observations from a re-analysis of the deposited data

How the results depend on the processing

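The median difference of the 10 genes (2.38) lay between 1.86 and 2.93 under every alternative. Col0 replicate 2 was the highest Col0 array for 7 of the 10 in every setting that kept all Col0 arrays except quantile normalization, where it was so for 8. The number of tested pathway genes that rose (1) was 2 with a pseudocount of 64, 6 with array weights, 0 with a replicate block and 0 to 6 when 1 array was left out, namely 0 without replicate 1 or 3 of Col0 or replicate 1 of AmGSTF1, 6 without Col0 replicate 2 and 3 without AmGSTF1 replicate 2. The number that fell was 0 in every setting. The adjusted p of AT3G53990 ranged from 0.0121 to 0.118. The cause of these changes was not tested. The labels state no pairing, so the replicate numbers were not taken as pairs. Same-numbered arrays of the groups had deviations that correlated at 0.146, -0.027 and -0.050 across probe sets. Without the values for differently numbered arrays beside them, these cannot show whether the numbers are pairs. Over all probe sets, the replicate block left 40 higher and 38 lower calls, against 292 and 396 without it. They numbered 123 and 213 with no filter, 192 and 237 without the trend, 222 and 599 with median centring, 814 and 827 with array weights, and 6 to 603 and 5 to 566 with 1 array left out. Signals in the dim range limit DRM1, SIS, ASN1, SEN1 and DIN2. Some Col0 signals of AT2G33830, AT4G27450, AT3G15450 and APL4 also lay in that range. With pseudocounts of 1 and 64, AT4G27450 differed by 1.77 and 1.14, and AT2G33830 by 2.53 and 1.99. Likewise, AT3G15450 differed by 2.55 and 2.09, and APL4 by 0.61 and 0.37.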
